A study of Rattus norvegicus with 46 samples.

Results

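Copying the genome once per division takes a set of proteins that cells make mainly around S phase, and 45 genes for such proteins were followed here in irradiated rat skin. They were chosen by symbol: every row of the deposited value table annotated with 1 of the 45 symbols was taken, over the baseline biopsies and all arms and days. Of the 45 genes, 42 were found, each with 1 feature, among 23188 features that are not controls, of which 15049 carry a gene symbol. Mcm5, Rpa1 and Uhrf1 have no row with that symbol in the annotation used here and were not analysed.

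Abdominal skin of 9 Sprague-Dawley rats was sampled repeatedly with 5 mm punches and hybridised to 46 Clariom S arrays. The baseline group holds 6 arrays of day -10, before any injection or radiation. The other groups were skin given 40 Gy of 6 MeV electrons (4 fractions of 10 Gy over 8 days) with RTA-408, the same radiation with the vehicle DMSO, and sham-irradiated skin with DMSO, called unirradiated below. Both injections were given on days -7, -5, -3 and 0, and biopsies were taken on days -4, 1, 3, 7 and 14. The day -4 biopsy lay within the radiation course, before the 40 Gy were complete and before the injections of days -3 and 0. Each irradiated arm has 3 arrays per day and the unirradiated arm 2. The 3 irradiated rats of an arm and the unirradiated rats were sampled again on later days, and unirradiated replicate 2 is another rat on days 7 and 14 than before. RTA-408 is a synthetic triterpenoid that activates NRF2, a transcription factor for antioxidant genes. There was no arm with RTA-408 and without radiation. A whole punch holds epidermis, hair follicles, dermis and muscle, so fewer dividing cells and less RNA per dividing cell cannot be told apart in any value below.

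Replication starts in the preceding G1 phase, when ORC, CDC6 and CDT1 load rings of MCM2 to MCM7 onto origins, and geminin (Gmnn) later blocks reloading. CDC45 and the GINS complex switch the loaded rings on as the helicase. DNA polymerase alpha with primase begins each strand, polymerases delta and epsilon extend it on the PCNA clamp, and FEN1 and DNA ligase 1 join the lagging-strand pieces. Ribonucleotide reductase, thymidylate synthase and thymidine kinase 1 supply the nucleotides. Many of these genes are targets of E2F transcription factors, which cyclin E with CDK2 helps to release from the retinoblastoma protein. In skin the main dividing cells are the basal keratinocytes, the matrix cells of growing hair follicles and, after injury, cells of the dermis.

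Values are log2 signals on the scale deposited by the authors, which reaches 19.66 to 19.93 on single arrays. That is wider than a scanner gives, so differences are given in log2 units of this scale and not as folds. The median of 1153 negative control features, between 5.78 and 6.52 on the 46 arrays, served as the level of no signal. On all 46 arrays 23 of the 42 genes exceeded it, on some arrays 18 did, and Pold1 (catalytic subunit of polymerase delta) did on none. Orc6, Cdt1 and Rfc3 exceeded it on 1 array each, Cdc6 on 2, E2f1 on 4, Orc1 on 5, Cdc45 on 6, Pole2 on 7, Gins1 on 8, Mcm10 on 9, Gins2 on 15 and Fen1 on 17. For these 12 genes and Pold1, the arrays mostly give an upper limit. Spike-in controls part the arrays into sets I, II and III of 18, 10 and 18 arrays. All baseline arrays are in set I, the unirradiated arrays in set I on days -4 and 1 and in set III afterwards, and each irradiated arm has 1 array per day in set II. Muscle markers stood apart at a mean of 6.78 on day -4 in RTA-408 replicate 1, at 6.08 in baseline replicate 2 and at 8.43 in unirradiated replicate 1 of day 1, against 12.74 to 18.66 on the other arrays. Basal keratinocyte markers were present throughout, with list means of 12.94 to 15.54. For unirradiated replicate 2 of day 1 a description names day 3, and the title, which names day 1, was followed.

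**Figure D1:**
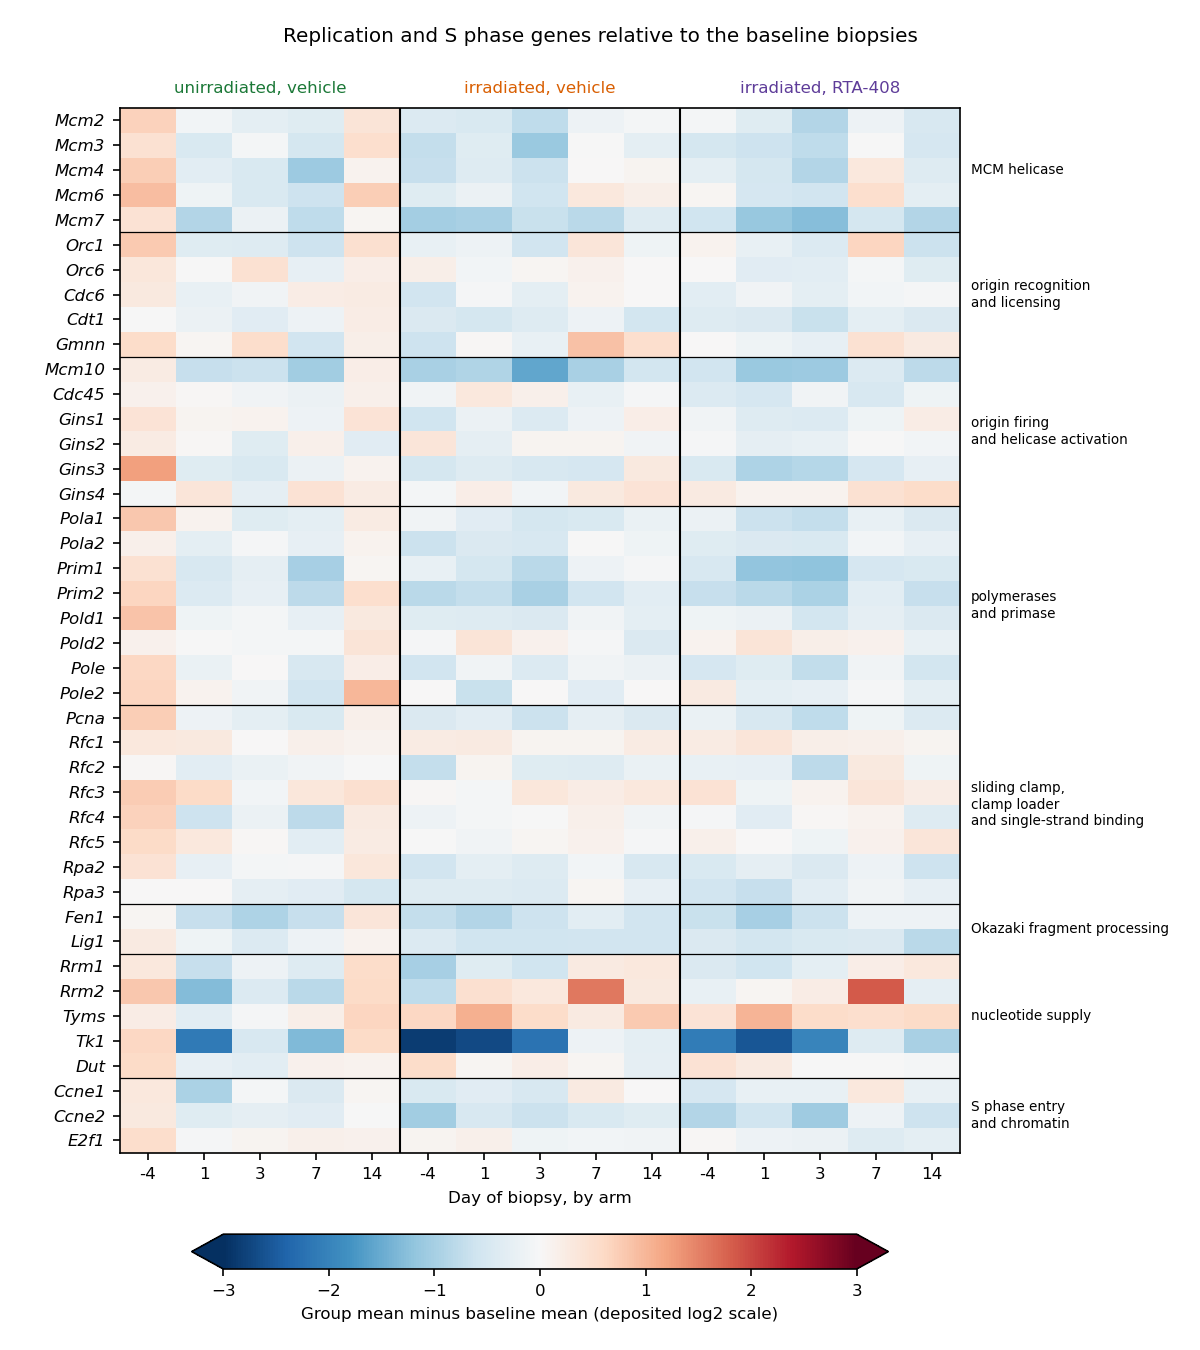
Group means of the 42 genes minus their baseline mean, in log2 units of the deposited scale, with genes grouped by role and columns by arm and day of biopsy. Tk1 is the darkest blue row on days -4, 1 and 3 of both irradiated arms, Rrm2 is the darkest red on day 7 of both, and the unirradiated arm is above baseline for 40 of 42 genes on day -4.

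The first comparison asked what radiation did to replication genes when both groups had received only vehicle. On day -4, during the course, these genes were lower in irradiated skin: 10 of 42 fell, 0 rose and 32 did not pass, where 4.19% of all 23188 features were called lower and 3.23% higher (limma, adjusted p under 0.05). The difference was negative for 40 of the 42, with a median of -0.85 against 0.07 over all features and a range from -3.47 to 0.38. In 28 of 42 every irradiated array lay below every unirradiated array, which held for 18.3% of all features. Tk1 fell most, and the genes that fell came from all roles except the joining of lagging-strand pieces. For origin recognition and licensing the only call was Cdc6, at signals under the negative controls.

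Tk1 encodes thymidine kinase 1, which salvages thymidine for DNA synthesis. Its feature, TC1000004193.rn.2, read 4.91, 6.42 and 5.51 in the 3 irradiated arrays and 9.17 and 8.99 in the 2 unirradiated arrays. The irradiated arrays therefore lay under the level of the negative controls, or in 1 array just above it, and far below the unirradiated ones. The difference was -3.47 ± 0.70 (SE; limma, adjusted p = 0.00344), with 1 of 3 irradiated arrays above the negative controls. Counted from the negative control level where an array was under it, the difference was -2.64. Rrm1, the large subunit of ribonucleotide reductase, which makes the DNA precursors, read 11.37, 12.34 and 11.49 against 12.89 and 13.23. It fell by 1.33. Rrm2, the small subunit of that enzyme, read 8.58, 10.86 and 9.28 against 10.86 and 11.42, giving -1.57, which missed the threshold (adjusted p = 0.118). Its 3 irradiated arrays were spread over more than the difference between the groups. Tyms, thymidylate synthase, and Dut, which removes dUTP, differed by 0.38 and -0.02 and did not pass.

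Among the genes for the helicase and its loading, Mcm7 read 9.21, 10.42 and 9.37 in irradiated and 11.02 and 11.22 in unirradiated skin. Mcm4, another subunit of the same ring, read 9.85, 11.05 and 9.98 against 11.48 and 11.94. Neither gene overlapped between the groups, and in both the second irradiated array was the nearest to the unirradiated ones. Mcm7 fell by 1.46 and Mcm4 by 1.42, and the 5 measured MCM genes had a median difference of -1.29, with 2 called. Mcm2 and Mcm6 differed by -1.10 (adjusted p = 0.153) and -1.29 (adjusted p = 0.191), without overlap of arrays and without passing. Gins3, a subunit of the GINS complex that turns the ring into an active helicase, read 6.94, 6.95 and 6.98 against 8.53 and 8.92. Its irradiated arrays were nearly equal, and it fell by 1.76 ± 0.37 (SE; limma, adjusted p = 0.00399). Cdc6, a helicase loader, passed as well, at 4.88, 5.13 and 5.24 against 5.93 and 5.98, but no array of either group exceeded the negative controls, so its signals have no readable size. Gmnn, the inhibitor of loading, differed by -1.17 (adjusted p = 0.135), with 1 of 3 irradiated arrays above the negative controls, and Cdt1, its target, was under them on all 5 arrays.

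Among the polymerase and clamp genes, Prim2, the large primase subunit that helps lay RNA primers, read 7.89, 8.19 and 7.87 in irradiated and 9.41 and 9.43 in unirradiated skin. It fell by 1.43 with little spread in either group. Pcna, the sliding clamp, read 12.59, 13.40 and 12.66 against 13.91 and 14.22 and fell by 1.18. Pold1 passed with a difference of -1.22 at signals below the negative controls on all 5 arrays, so no size can be read from it. The 8 genes for the clamp, its loaders and single-strand binding had a median difference of -0.72 with 1 called, and the 8 polymerase and primase genes one of -0.85 with 2 called. Fen1 and Lig1 differed by -0.76 and -0.67, and neither passed.

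Cyclin E drives entry into S phase, and its 2 genes were both measured. Ccne2 read 7.30, 8.40 and 7.61 in irradiated and 9.35 and 8.88 in unirradiated skin. The groups did not overlap, and Ccne2 fell by 1.35 ± 0.35 (SE; limma, adjusted p = 0.0151). Ccne1 read 5.95, 7.54 and 6.05 against 7.21 and 7.37. With 1 irradiated array above both unirradiated ones, and above the negative controls on that array only, it did not pass (difference -0.77, adjusted p = 0.36). E2f1, the transcription factor, was under the negative controls on all 5 arrays and did not pass.

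**Figure D2:**
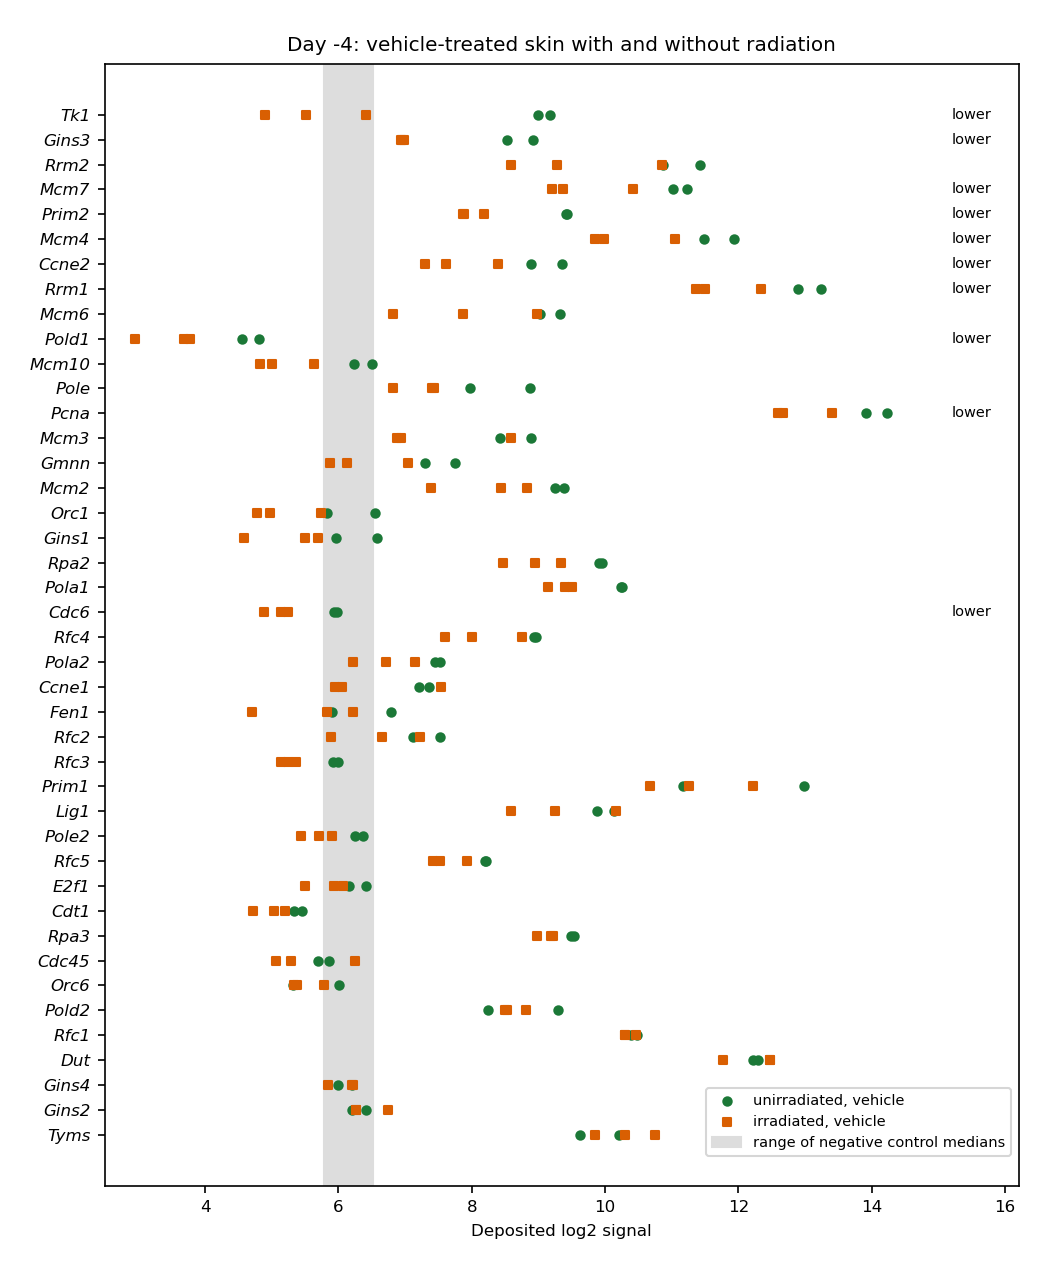
Signal of each of the 42 genes in every vehicle array of day -4, ordered by the difference between irradiated (squares, 3 arrays) and unirradiated skin (circles, 2 arrays), with the range of the negative control medians in grey; coinciding arrays share a symbol. The word lower marks the 10 genes that passed, and Gins2 and Tyms are the 2 genes with positive differences, 0.12 and 0.38.

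These calls rested on few arrays and on the model. The count was 20 with array weights, 5 with only these groups fitted and 0 with the rat as a fixed block. The shares of all features given above are not from these settings, so the counts stand without such a share. No rat was in both arms, so under the rat block the arms are linked only through baseline biopsies. Where an array left out leaves 1 in its group, that array is assumed to vary like those of the other groups. Without unirradiated replicate 1 the count was 1 of 42 and without replicate 2 it was 0. Without irradiated replicate 1 it was 3, without replicate 3 it was 4 and without replicate 2 it was 13. Tk1 lost its call without either unirradiated array (highest adjusted p = 0.0643) and Gins3 without replicate 2 of them (adjusted p = 0.09). Each of the other 8 genes lost its call without either (highest adjusted p of any gene = 0.297, in Mcm4). Within spike-in set I alone, Gins3 and Tk1 were called, and the 2 unirradiated arrays were themselves above baseline for 40 of 42 genes, by a median of 0.45, with 0 of 42 called.

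Genes outside the 45 were set beside them. Of 38 other measured replication and S phase genes, 6 fell and 0 rose on day -4, with a median difference of -0.52. They were Pclaf, a PCNA-binding protein, which fell by 3.28, Ccna2, the S phase cyclin A2, by 3.04, E2f3 by 1.80, the CDK-activating phosphatase Cdc25a by 1.51, E2f7 by 1.33 and the maintenance DNA methyltransferase Dnmt1 by 1.27. Of 25 mitosis genes, 20 fell and 0 rose, with a median of -2.13. Examples were the proliferation antigen Mki67, which fell by 3.69, and the mitotic kinase Plk1, by 2.81. Of 16 p53 targets, 9 rose and 0 fell, among them Tp53inp1 by 2.40 and Mdm2, the p53 ubiquitin ligase, by 2.14.

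Markers of several cell types moved in the same comparison, hair matrix cells and basal keratinocytes among them. The 7 measured hair matrix genes had list means of 6.92 to 12.27 in the irradiated arrays of day -4 and 16.04 to 16.15 in the unirradiated ones. Of the 7, 4 fell, among them the hair keratins Krt35 by 9.41 and Krt85 by 9.05, and 0 were below the negative controls on all arrays of either group. Of 6 basal keratinocyte markers, 3 rose, Krt14 by 1.11 among them, and the list means were 15.00 to 15.24 against 13.60 to 14.11. List means were also higher for fibroblasts (15.51 to 16.27 against 14.82 to 14.90) and endothelium (9.15 to 9.19 against 7.60 to 8.25). So were those of macrophages and monocytes (9.15 to 10.12 against 8.02 to 8.48). The part of any of these cell types in the values of the replication genes was not tested.

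The promoters of 4 of the genes that the results turn on are printed here because the data bear on genes that fell together or moved apart: Mcm7 and Gins3 fell on day -4, Tyms did not, and Tk1 fell most. Each is the 250 bases before the RefSeq start on GRCr8, on the minus strand of the chromosome and printed 5′ to 3′ in the direction of the gene. They lie at chr12:22163179-22163428 (Mcm7), chr19:9434680-9434929 (Gins3), chr9:120776084-120776333 (Tyms) and chr10:103544778-103545027 (Tk1). Capitals mark matches to the E2F-type sequences TTTCCCGC, TTTCGCGC, TTTGGCGC and TTTGCCGC on either strand, where a match to the other strand reads as its reverse complement.
Mcm7: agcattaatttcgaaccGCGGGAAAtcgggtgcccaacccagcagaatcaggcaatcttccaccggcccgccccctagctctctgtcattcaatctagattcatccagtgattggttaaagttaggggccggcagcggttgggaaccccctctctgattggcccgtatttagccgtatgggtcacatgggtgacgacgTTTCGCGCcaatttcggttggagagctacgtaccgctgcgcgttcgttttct
Gins3: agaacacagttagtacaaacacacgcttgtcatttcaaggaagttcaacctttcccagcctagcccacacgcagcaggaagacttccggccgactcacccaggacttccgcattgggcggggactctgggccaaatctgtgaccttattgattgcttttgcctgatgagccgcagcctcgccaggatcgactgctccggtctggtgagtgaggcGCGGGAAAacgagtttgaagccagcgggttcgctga
Tyms: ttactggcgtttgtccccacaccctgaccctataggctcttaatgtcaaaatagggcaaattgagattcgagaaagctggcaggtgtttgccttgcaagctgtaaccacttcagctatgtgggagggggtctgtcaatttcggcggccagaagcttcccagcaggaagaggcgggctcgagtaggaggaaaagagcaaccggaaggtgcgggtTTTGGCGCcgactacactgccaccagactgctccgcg
Tk1: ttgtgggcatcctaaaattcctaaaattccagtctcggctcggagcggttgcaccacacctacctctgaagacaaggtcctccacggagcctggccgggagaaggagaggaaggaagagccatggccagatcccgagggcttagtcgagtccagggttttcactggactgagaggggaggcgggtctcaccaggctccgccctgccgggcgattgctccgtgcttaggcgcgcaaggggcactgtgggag
Mcm7 holds 2 matches, 233 and 52 bases before the start, Gins3 holds 1 at 36 bases and Tyms 1 at 37 bases. None of these letters occurs in the Tk1 window. Of the 45 genes, 37 have a promoter in the RefSeq table, and 8 of the 37 (21.6%) hold a match: Gins1, Gins3, Mcm2, Mcm5, Mcm6, Mcm7, Pola1 and Tyms. The share among all 27457 promoters of the table was 1.81%. It was 35.7% (15 of 42) in the other replication genes, 3.7% (1 of 27) in mitosis genes and 0 of 14 in p53 targets. A match describes the letters in this window and not a bound site, and matches on both strands at 1 position were counted separately.

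On the later days the radiation comparison gave 1 upward call on day 1, 1 on day 7 and no others among the 42 genes. That is near the shares of all features called higher on these days, given below. On day 1, after the course, Tyms rose and 0 fell, where 1.2% of all features were called higher. Tyms, TC0900002696.rn.2, makes thymidylate for DNA synthesis and read 11.07, 10.48 and 10.70 in irradiated and 9.67 and 9.06 in unirradiated skin. The groups did not overlap, and the difference was 1.39 ± 0.33 (SE; limma, adjusted p = 0.021). Rrm2 read 11.40, 10.84 and 10.21 against 8.70 and 9.36, giving 1.79, which missed the threshold (adjusted p = 0.109). Tk1 did not pass (adjusted p = 0.771), with 0 of 3 irradiated arrays above the negative controls and unirradiated arrays that were low too, at 6.23 and 6.44. The median over the 42 genes was -0.06, against -0.03 over all features. Tyms lost its call without irradiated replicate 1 or 3 or unirradiated replicate 2 (highest adjusted p = 0.17), which left 0 of 42, and 0 of 42 were called within spike-in set I and with the rat as a fixed block.

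On day 3, 0 of 42 passed, 2 had an unadjusted p under 0.05 and 1.3% of all features were called in either direction (limma). Tk1 had the lowest difference, -1.74 (adjusted p = 0.246), at 6.07, 6.32 and 6.31 in irradiated and 6.74 and 9.21 in unirradiated skin. The 2 unirradiated arrays were themselves far apart, and without replicate 1 of them, which leaves the array at 9.21 alone, Tk1 was called with the spread taken from the other groups. Rrm2 had the highest difference, 0.73, and Tyms one of 0.59.

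On day 7 Rrm2 rose and 0 fell, where 2.69% of all features were called higher. Rrm2, TC0600000504.rn.2, is the subunit that limits ribonucleotide reductase to S phase. It read 12.24, 11.87 and 11.63 in irradiated and 10.45 and 8.60 in unirradiated skin. Markers of other cells were higher in the same comparison: list means were 15.58 to 16.14 against 9.84 to 11.38 for 3 wound keratinocyte genes (3 rose), 11.52 to 12.87 against 9.53 to 9.77 for 10 macrophage and monocyte genes (4 rose) and 13.91 to 14.62 against 12.12 to 12.22 for 5 red blood cell genes (0 passed). Their part in the Rrm2 value was not tested. All irradiated Rrm2 arrays lay above both unirradiated ones, which differed widely from each other, and the difference was 2.39 ± 0.62 (SE; limma, adjusted p = 0.0224). Gmnn had the next highest, 1.46 (adjusted p = 0.0768), at 7.70, 8.15 and 7.71 against 7.24 and 5.55. Tk1 differed by 1.16 (adjusted p = 0.41) and Mcm6 by 0.93 (adjusted p = 0.432). Unirradiated replicate 2 of day 7 was the lowest of all 46 arrays in the mean of the 42 genes, at 7.17, against 8.20 in replicate 1. Without it 0 of 42 were called (Rrm2 adjusted p up to 0.427 over the arrays left out), without unirradiated replicate 1 it was 3, and without irradiated replicate 1 or 3 it was 0. Within spike-in set III and with the rat as a fixed block it was 0.

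On day 14, 0 of 42 passed, 5 had an unadjusted p under 0.05 and 6.96% of all features were called in either direction (limma). Of the 42 differences 35 were negative, with a median of -0.33 against 0.01 over all features. In 13 of 42 every irradiated array lay below both unirradiated ones, where 11.8% of all features did so. Pole2, a subunit of polymerase epsilon, had the lowest difference, -0.996 (adjusted p = 0.13), with 1 of 3 irradiated arrays above the negative controls. Gmnn had the highest, 0.34. Without irradiated replicate 1, the array with the highest hair matrix mean of the 3, Cdt1, Pold2 and Pole2 were called, 3 of 42. That count stands without a share of all features. Cdt1 was under the negative controls on all arrays left, and Pole2 on both irradiated arrays left. The irradiated arrays of day 14 had hair matrix list means of 13.48, 5.80 and 5.12, against 16.24 and 13.84 in unirradiated skin, and the part of that cell type in these differences was not tested.

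Whether the radiation difference changed between the 5 days was tested for each gene with an F-test in the same model. It passed for Rrm2 alone of the 42 (F = 6.66, adjusted p = 0.0343), where 2.16% of all features passed. Its differences were -1.57, 1.79, 0.73, 2.39 and -0.28 on days -4, 1, 3, 7 and 14. Tk1 came next and did not pass (F = 5.75, adjusted p = 0.0523), with -3.47, -0.59, -1.74, 1.16 and -0.88, of which the first 3 include arrays under the negative controls. Rrm2 lost the call when irradiated replicate 1 or 3 or unirradiated replicate 2 was left out on all days, which gave 0 genes, and without unirradiated replicate 1 there were 5. With the rat as a fixed block there were 0.

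**Figure D3:**
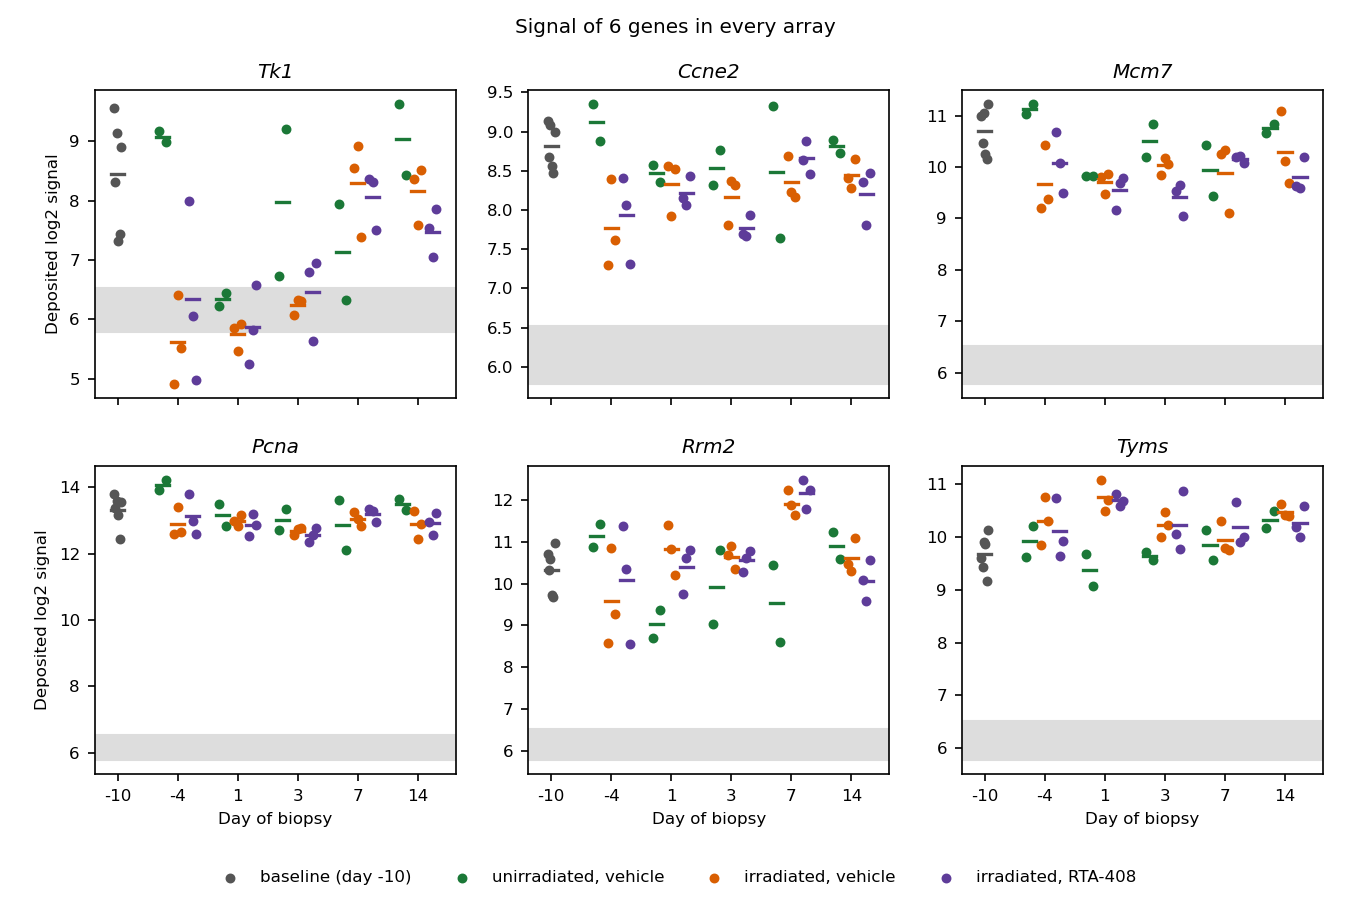
Deposited log2 signal of Tk1, Ccne2, Mcm7, Pcna, Rrm2 and Tyms in every array by day of biopsy and arm, with a bar at each group mean and the range of negative control medians in grey. Tk1 reaches the grey band on days -4, 1 and 3 in irradiated skin and on days 1 and 7 in unirradiated skin, and the 6 irradiated arrays of day 7 hold the highest Rrm2 signals.

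Irradiated skin with vehicle was also set against the 6 baseline arrays, of which 2 came from rats of this arm, 2 from the RTA-408 arm and 2 from the unirradiated arm. On day -4, 5 of 42 fell (4.26% of all features), namely Tk1, Ccne2, Mcm7, Rrm1 and Pola2, a regulatory subunit of polymerase alpha. On day 1, Mcm7 and Tk1 fell (4.65%) and Tyms rose (5.08%). On day 3, Tk1, Prim2 and Mcm10, which helps origins fire, fell (3.97%). On day 7, Rrm2 rose (7.92%), and on day 14, Tyms rose (9.47%). The rises of days 1, 7 and 14 were each a smaller share of the 42 genes than of all features. The share that fell on day 1 was close to that of all features. Median differences of the 42 were -0.42, -0.32, -0.42, -0.06 and -0.11 on the 5 days, against 0.06, 0.04, 0.05, 0.00 and -0.01 over all features.

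Tk1 ranged from 7.33 to 9.56 at baseline, with a median of 8.61. With radiation and vehicle it read 5.85, 5.47 and 5.92 on day 1 and 6.07, 6.32 and 6.31 on day 3. By day 7 it was back in the baseline range, at 8.56, 8.93 and 7.39. With arrays under the negative controls set to that level, the fall was at least 2.01 on day -4, where 1 of 3 arrays exceeded it (adjusted p = 0.000714). It was at least 2.28 on day 1, where 0 of 3 did (adjusted p = 0.00115), and at least 2.12 on day 3, where 2 of 3 did (adjusted p = 0.00739). All 3 calls were kept whichever of the 9 arrays was left out, with adjusted p of at most 0.0187, 0.014 and 0.0436. With the rat as a fixed block, the call held on day -4 (adjusted p = 0.033) and was lost on day 1 (adjusted p = 0.0699) and day 3 (adjusted p = 0.156). This block compares biopsies of the same animal, and only 2 of the 3 vehicle rats had a baseline biopsy. Mcm7 fell by 1.03 on day -4 and 0.98 on day 1, and lost its call without baseline replicate 1, 3 or 6 and without vehicle replicate 1 or 3 on both days, and without vehicle replicate 2 on day 1 (highest adjusted p = 0.214 and 0.173). Rrm1, which fell by 1.00 on day -4, and Ccne2, by 1.05, lost theirs without vehicle replicate 1 or 3 (highest adjusted p = 0.128 for each). Pola2 fell by 0.65 on day -4 and lost its call without 6 of the 9 arrays, baseline replicates 1, 3, 4 and 6 and vehicle replicates 1 and 2 (highest adjusted p = 0.376). Prim2 fell by 0.97 on day 3 and lost it without baseline replicate 1, 3 or 6 or vehicle replicate 1 or 3 (highest adjusted p = 0.149). Mcm10 on day 3 was under the negative controls in all 3 irradiated arrays and in 3 of 6 baseline arrays. With these arrays set to that level the fall was 0.24. Since baseline arrays were raised too, this is not a lower limit. Its call was lost without vehicle replicate 1 or 3 (highest adjusted p = 0.122).

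Rrm2 ranged from 9.68 to 10.97 at baseline, below all 3 vehicle arrays of day 7, and it rose by 1.59 ± 0.48 (SE; adjusted p = 0.0208). Tyms ranged from 9.17 to 10.13 at baseline. It rose by 1.07 on day 1 (adjusted p = 0.00498) and by 0.79 on day 14 (adjusted p = 0.0273), when it read 10.62, 10.41 and 10.39. Every irradiated array of both days lay above the baseline range. The call of Tyms was lost without vehicle replicate 1 on day 1 (adjusted p = 0.0599) and without baseline replicate 2 or 5 or any 1 vehicle array on day 14 (highest adjusted p = 0.0865), and that of Rrm2 without vehicle replicate 1 or 2 of day 7 (highest adjusted p = 0.103). With the spike-in set as a block, 3, 0, 0 and 0 members were called on days -4, 3, 7 and 14. With the rat as a fixed block, every call of this arm against baseline except Tk1 on day -4 was lost, among them Tyms on day 1 (adjusted p = 0.23) and Rrm2 on day 7 (adjusted p = 0.0781).

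Irradiated skin with RTA-408 was set against the same baseline arrays, so its differences share those controls with the vehicle arm and are given beside them without a comparison. On day -4, Tk1 and Ccne2 fell (1.57% of all features). On day 1, Tk1, Mcm7, Fen1 and Gins3 fell (4.79%) and Tyms rose (6.17%). On day 3, Tk1, Mcm7, Ccne2, Prim2 and Gins3 fell (4.36%). On day 7, Rrm2 rose (9.12%), and on day 14, Lig1, the ligase that seals lagging-strand pieces, fell (4.71%).

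Tk1 with RTA-408 read 7.99, 6.06 and 4.98 on day -4, 5.24, 5.82 and 6.57 on day 1 and 6.79, 5.64 and 6.94 on day 3. It was within the baseline range in 1 array of day -4 and below it in the other 8 arrays. With arrays under the negative controls set to that level, it fell by at least 1.61, 2.24 and 1.81, with 1, 1 and 2 of 3 arrays above it. Without the day -4 array that had few muscle transcripts, replicate 1, both remaining arrays were under the negative controls and Tk1 kept its call, and it lost it without replicate 2 or 3 (highest adjusted p = 0.308). Ccne2 read 7.70, 7.66 and 7.94 on day 3, below the baseline range of 8.47 to 9.13, and fell by 1.05 (adjusted p = 0.00906), a call that held without each of the 9 arrays. Rrm2 read 12.48, 11.78 and 12.25 on day 7, above every baseline array, and rose by 1.84 ± 0.48 (SE; adjusted p = 0.00587), which also held without each array. Tyms read 10.81, 10.58 and 10.68 on day 1 and rose by 1.01 (adjusted p = 0.00683, at most 0.0489 without 1 array). Fen1 on day 1 was under the negative controls in all 3 irradiated arrays and in some baseline arrays. With these arrays set to that level the fall was 0.28, which is not a lower limit. The call of Fen1 was lost without 7 of the 9 arrays, among them every RTA-408 array (highest adjusted p = 0.185). Mcm7 fell by 1.14 on day 1 and 1.28 on day 3 and lost its call without RTA-408 replicate 1 and replicate 3 respectively (adjusted p = 0.118 and 0.067). Gins3 fell by 0.93 and 0.86 on these days and lost its call without 6 and 7 of the 9 arrays (highest adjusted p = 0.164 and 0.221). Prim2 fell by 0.96 on day 3 and lost its call without any 1 RTA-408 array or baseline replicate 3 or 6 (highest adjusted p = 0.139). Tk1 on day 3 lost its call without RTA-408 replicate 2 (adjusted p = 0.136), and Ccne2 on day -4, where it fell by 0.89, without RTA-408 replicate 2 or 3 or baseline replicate 1, 3 or 6 (highest adjusted p = 0.429). Lig1 on day 14 read at most 9.19, below the baseline range of 9.49 to 10.04, fell by 0.82 and lost its call without any 1 RTA-408 array or baseline replicate 3 or 6 (highest adjusted p = 0.253). With the spike-in set as a block, 0 members were called on days -4, 3 and 14. With the rat as a fixed block, 7 of the 14 calls of this arm held, namely Tk1 on days -4, 1 and 3, Gins3 on days 1 and 3 and Fen1 and Tyms on day 1, and Rrm2 on day 7 was lost (adjusted p = 0.0712).

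The 38 other replication genes and the 25 mitosis genes were followed against baseline as well. Of the former, 4, 3, 3, 1 and 1 fell on the 5 days with vehicle and 2, 7, 3, 1 and 2 with RTA-408, and at most 2 rose on any day. Of the latter, 20, 16, 6, 1 and 0 fell with vehicle and 10, 19, 9, 1 and 0 with RTA-408, and 0 rose. Of all 23188 features, 987, 1078, 920, 1406 and 1383 fell with vehicle and 364, 1111, 1011, 1546 and 1092 with RTA-408. Foxm1, a transcription factor for G2 and M phase genes, was the mitosis gene that was still lower on day 7 in both. The 1 gene of each list on day 7 was a smaller share than that of all features. Hair matrix genes fell in 4 to 7 of 7 on every day and in both arms, with list means as low as 5.12, and on day 7, when Rrm2 was highest, the irradiated means were 5.28 to 5.74, with 4 of 7 genes under the negative controls on all arrays of each arm. The part of hair matrix cells in the levels of the replication genes was not tested.

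**Figure D4:**
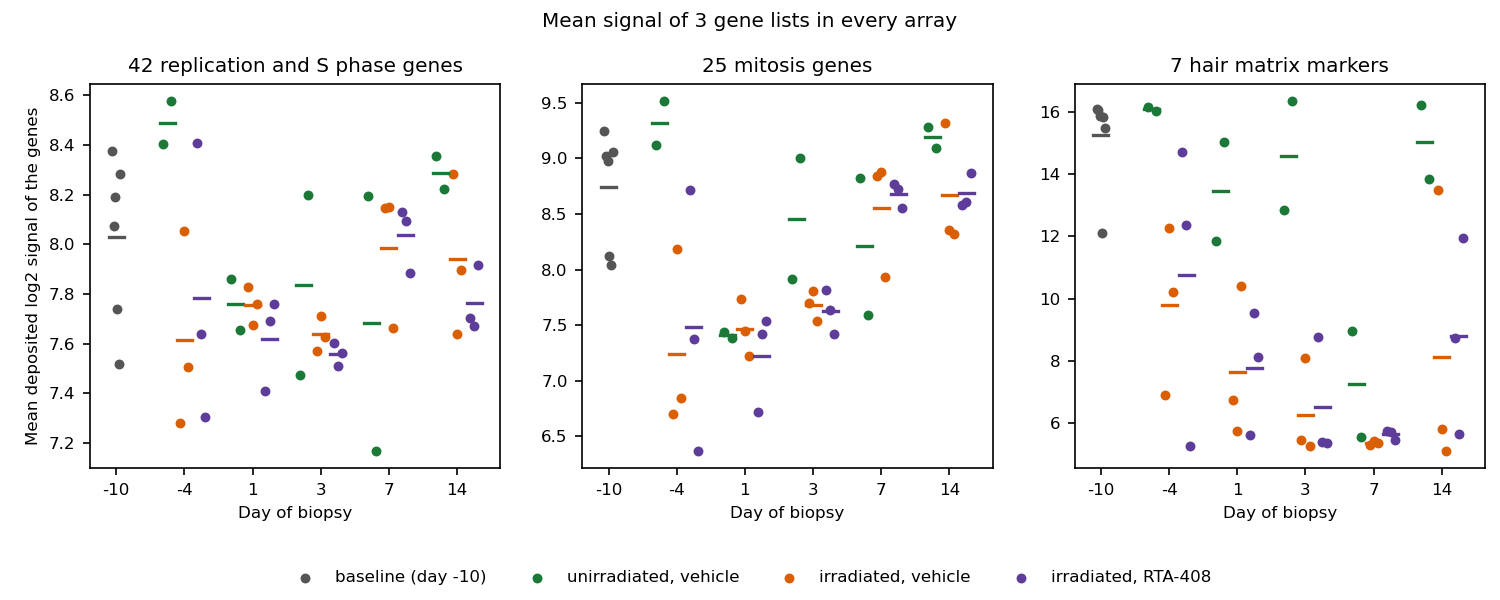
Mean deposited log2 signal per array of the 42 replication and S phase genes, 25 mitosis genes and 7 hair matrix markers by day of biopsy and arm, with a bar at each group mean. On day 7 the 6 irradiated arrays have hair matrix means of 5.28 to 5.74 while their mitosis means are 7.94 to 8.88.

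The drug comparison asked whether RTA-408 changed these genes in irradiated skin, with 3 rats against 3 on each day. Of the 42, 0 rose and 0 fell on any of the 5 days, where 0.0474%, 0.0733%, 0.00431%, 0% and 0% of all features were called (limma). An unadjusted p under 0.05 was reached by 0, 1, 0, 0 and 0 genes and by 976, 658, 797, 613 and 2904 of all features. Median differences, RTA-408 minus vehicle, were 0.16, -0.13, -0.06, 0.02 and -0.22, against -0.02, 0.00, -0.01, 0.02 and 0.01 over all features. Of 210 differences 14 exceeded 0.5 in size, and the 95% interval lay within 1 unit of 0 for 138 of 210, genes under the negative controls included.

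The extremes of each day were as follows. On day -4 Tk1 had the highest, 0.73, at 7.99, 6.06 and 4.98 with RTA-408 and 4.91, 6.42 and 5.51 with vehicle. Since 1 of 3 arrays of each arm exceeded the negative controls, the difference was 0.40 with the other arrays set to that level. The arrays of both arms were intermixed apart from the first RTA-408 array, the one low in muscle markers. Gins2 had the lowest, -0.41, with 1 of 3 arrays of each arm above the negative controls. On day 1 the extremes belonged to Cdc45, which joins the helicase, and Pole2, and all 6 arrays of both genes lay under the negative controls, so no difference can be read. Cdc45 was the 1 gene with an unadjusted p under 0.05. On day 3 Mcm7 had the lowest, -0.62 (95% interval -1.35 to 0.10), at 9.53, 9.65 and 9.05 with RTA-408 and 9.85, 10.18 and 10.06 with vehicle. These groups did not overlap, and the difference did not pass (adjusted p = 1). Mcm10 had the highest on that day, with all 6 arrays under the negative controls. On day 7 Rfc2, a clamp loader subunit, had the highest, 0.69 (95% interval -0.05 to 1.43), and Gmnn the lowest, -0.42. On day 14 Tk1 had the lowest, -0.68 (95% interval -1.96 to 0.60), and Fen1 the highest, 0.42.

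For the genes that changed against baseline, the intervals show how far the arms could differ. Rrm2 on day 7 differed by 0.25 (95% interval -0.87 to 1.37), and Tyms on day 1 by -0.06 (95% interval -0.66 to 0.53). Tk1 on day 1 exceeded the negative controls in 1 of 6 arrays, so no difference can be read. A difference of about 1 unit in Rrm2 could therefore not be detected with 3 arrays per arm. The test of whether the drug difference changed between days passed for 0 of 42 genes, with 0 at an unadjusted p under 0.05 and 0.0129% of all features passing.

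**Figure D5:**
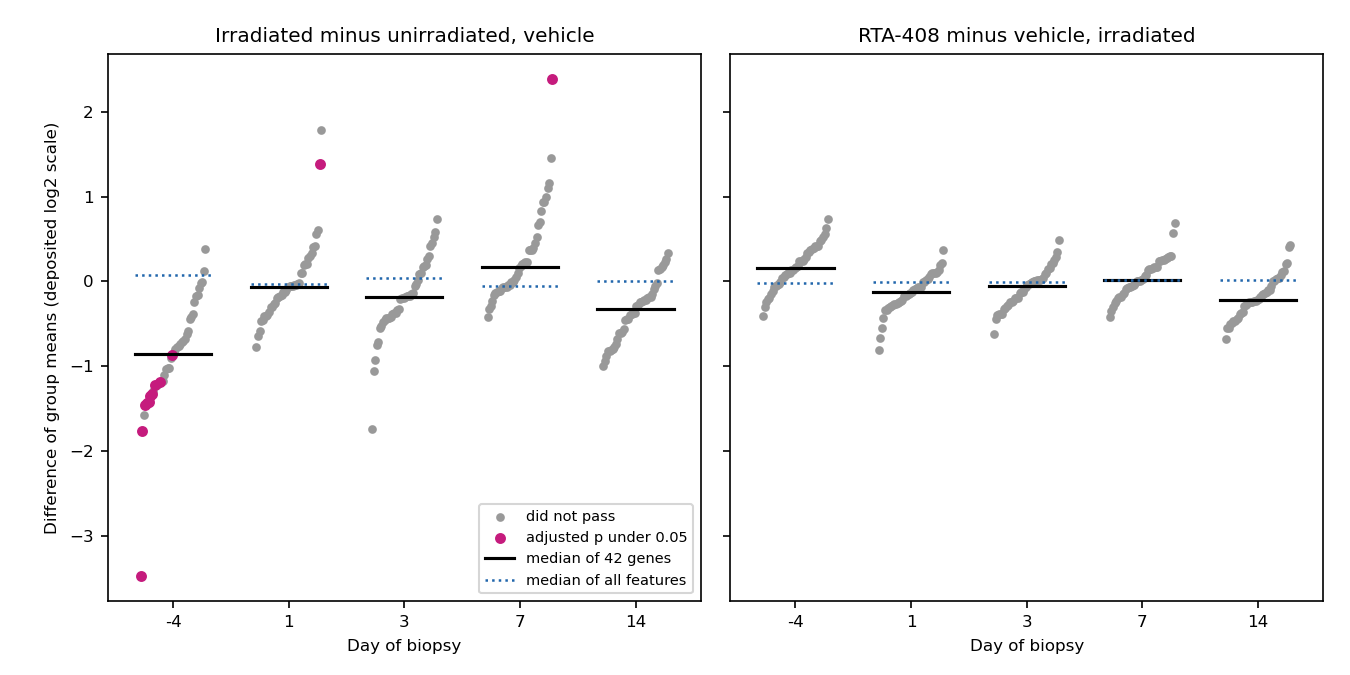
Differences of group means for the 42 genes on each day, sorted within a day, for irradiated minus unirradiated vehicle skin (left) and RTA-408 minus vehicle in irradiated skin (right), in log2 units of the deposited scale. Solid lines mark the median of the 42 genes and dotted lines that of all features, and the 12 coloured points that passed are all on the left.

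Between one biopsy and the next, 0 of 42 genes passed in either irradiated arm (limma). With vehicle 5, 0, 6 and 2 genes had an unadjusted p under 0.05 from day -4 to 1, 1 to 3, 3 to 7 and 7 to 14, where 0.755%, 0%, 3.25% and 0.211% of all features were called. With RTA-408, 0.00863%, 0.0518%, 0.737% and 0.927% of all features were called. Here 0, 0, 8 and 2 of the 42 genes and 2112, 999, 2625 and 2988 of all features had an unadjusted p under 0.05. From day 3 to day 7, 31 of 42 differences were positive with vehicle (median 0.31) and 36 of 42 with RTA-408 (median 0.38). The arrays of day 7 lay above all of day 3 for 9 of 42 genes with vehicle, where 10.9% of all features did so, and for 18 of 42 with RTA-408, where 9.56% did. Tk1 differed most with vehicle, by 2.06 (adjusted p = 0.0657), and Rrm2 most with RTA-408, by 1.62 (adjusted p = 0.197). From day 7 to day 14 Rrm2 differed by -1.29 with vehicle (adjusted p = 0.365) and -2.10 with RTA-408 (adjusted p = 0.0542).

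Unirradiated skin with vehicle also varied, which bears on every comparison made with it. Against baseline 0 of 42 genes passed on any day, and 8, 5, 1, 6 and 2 had an unadjusted p under 0.05, where 0.0173%, 0.315%, 0%, 2.71% and 0% of all features were called (limma). On day -4 Gins3 was highest above baseline, by 1.23 (adjusted p = 0.272). In 12 of 42 genes both arrays of day -4 lay above all 6 of baseline, as they did for 7.26% of all features. Without replicate 1 of day 7, Mcm4 was called there. On day 1 Tk1 read 6.23 and 6.44, below all baseline arrays, with a difference of -2.11 (adjusted p = 0.118; 1 of 2 arrays above the negative controls), and Rrm2 read 8.70 and 9.36, with -1.30 (adjusted p = 0.291). Medians over the 42 genes were 0.45, -0.21, -0.19, -0.33 and 0.23 on the 5 days. Hair matrix list means in these arrays were 16.04 and 16.15 on day -4, 11.86 and 15.04 on day 1, 12.86 and 16.34 on day 3, 5.56 and 8.95 on day 7 and 13.84 and 16.24 on day 14.

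After group means were subtracted, the genes varied together across the 46 arrays. The median correlation over 861 pairs was 0.44, and 97.9% of pairs were positive. Pairs of mitosis genes had a median of 0.75 (300 pairs), and replication with mitosis genes one of 0.57 (1050 pairs). Tk1 had the highest median correlation with the other replication genes, 0.66, followed by Pcna with 0.65, and Gins4 the lowest, 0.22. Tk1 also had a standard deviation within groups of 0.81. The arrays share a normalization, and repeated biopsies of a rat share the animal, so these values are a description.

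Over the 33 comparisons of groups, 16 of the 42 genes passed at least once and 26 never did, with 32 calls lower and 7 higher. Tk1 had 7 calls, Mcm7 5, Ccne2 4, Gins3 and Prim2 3 each and Rrm1 2, all lower. Tyms had 4 calls and Rrm2 3, all higher. Mcm4, Cdc6, Mcm10, Pola2, Pold1, Pcna, Fen1 and Lig1 had 1 each, all lower. The 26 others were Mcm2, Mcm3, Mcm6, Orc1, Orc6, Cdt1, Gmnn, Cdc45, Gins1, Gins2, Gins4, Pola1, Prim1, Pold2, Pole, Pole2, Rfc1, Rfc2, Rfc3, Rfc4, Rfc5, Rpa2, Rpa3, Dut, Ccne1 and E2f1. Comparisons share arrays, so these counts are not independent. No share over all features was computed for these totals, so they do not show more calls than other features had. In several comparisons with 1 call the share of all features was larger, as for Tyms on day 14 against baseline (9.47% higher).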

How the data were processed

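Signals are on the log2 scale as the authors deposited them, 1 for each feature of each array. Their normalization was not given in the sources used here. RNA of 100 ng (mean RNA integrity number 7.15) went into each labelling, per the labels' protocols. The raw scans were not analysed here. Of 24834 features, 1646 controls were left out, and gene symbols were taken from GEO's platform annotation, where 8139 features have none. With limma 3.58.1 (R 4.3.3), 1 model with a mean for each of 16 groups (30 residual degrees of freedom) covered all arrays, and p-values were adjusted by Benjamini-Hochberg over 23188 features in each comparison. Adjusted p under 0.05 is a call, and ± is SD or SE as stated. With 2 or 3 arrays per group the number of arrays limits the precision. Groups came from titles. Promoters came from RefSeq (GRCr8).

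The genes and lists were chosen with earlier results of these data known. By rule, values are given for up to 6 called members per comparison with the largest differences, the largest and smallest where none was called, a fixed panel, and up to 4 called genes per list. Gmnn on day 7, Dut, Fen1 and Lig1 on day -4 and further list genes were named after their values were seen. The fit was tested on simulated data. Rat identifiers in the labels pair biopsies of 1 animal across groups, whatever their replicate number. Arrays of the same rat in other groups had a median correlation of deviations of 0.02 (102 pairs). The rat and the replicate number are blocks among the alternatives. Other alternatives were quantile normalization, leaving out the dimmest 25% of features, array weights, the compared groups alone, the spike-in set as a block, single arrays left out and, added after the data were seen, single spike-in sets.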

Additional observations from a re-analysis of the deposited data

Results flagged for a closer look

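Rrm2, the small subunit of ribonucleotide reductase, passed the test of whether its radiation difference changed between days (F-test in limma, adjusted p = 0.0343). Of all features 2.16% passed it, and Rrm2 lost its call with the rat as a fixed block and with only the compared groups fitted. The difference was -1.57 on day -4, 1.79 on day 1, 0.73 on day 3, 2.39 on day 7 and -0.28 on day 14. On days 1 and 7 the unirradiated arrays, at 8.70 and 9.36 and at 10.45 and 8.60, lay mostly below the baseline range of 9.68 to 10.97, while on day -4 they read 10.86 and 11.42. Baseline was the only group with 4 or more arrays, and in none of the 42 genes did a baseline array stand far enough from the others to be listed.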

How the results depend on the processing

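Counts of called genes are given here by setting, without the share of all features called under the same setting. With array weights the radiation comparison gave 20 on day -4 and 1 on day 14, vehicle against baseline 8, 6, 2 and 3 on days -4, 1, 7 and 14, RTA-408 against baseline 8 and 3 on days 1 and 14, unirradiated skin against baseline 1 on day -4, vehicle day 7 against day 3 1, RTA-408 day 14 against day 7 2, and the F-test of radiation 6. With the rat as a fixed replicate block, the radiation comparison gave 0 on days -4, 1 and 7, vehicle against baseline 1 on day -4 (Tk1) and 0 on the other 4 days, RTA-408 against baseline 1 on day -4 (Tk1) and 7, 4, 1 and 1 on the other 4 days, and the F-test of radiation 0. Of the 39 calls, 31 were lost under that block. As a random block it changed no count. With the replicate number as a block, vehicle against baseline gave 5 on day 1, and RTA-408 against baseline 8, 8, 2 and 0 on days 1, 3, 7 and 14. With the spike-in set as a block, vehicle against baseline gave 3, 0, 0 and 0 on days -4, 3, 7 and 14, RTA-408 against baseline 0 on days -4, 3 and 14, and RTA-408 day 14 against day 7 1 (Rrm2). With only the compared groups fitted, the radiation comparison gave 5 and 0 on days -4 and 1, vehicle against baseline 2 and 0 on days -4 and 14, RTA-408 against baseline 0 and 3 on days -4 and 3, day 7 against day 3 2 in each arm, RTA-408 day 14 against day 7 2, and the F-test of radiation 0. Within set I the radiation comparison gave 2 on day -4 and 0 on day 1, and within set III 0 on day 7. Without the dimmest features, RTA-408 day 14 against day 7 gave 1 and the F-test of radiation 2. Leaving out single arrays gave 0 to 13, 0 to 1, 0 to 1, 0 to 3 and 0 to 3 for the radiation comparison on the 5 days, 1 to 6, 1 to 5, 1 to 4, 0 to 1 and 0 to 1 for vehicle against baseline, 0 to 3, 2 to 8, 2 to 8, 1 to 1 and 0 to 2 for RTA-408 against baseline, 0 to 1 for unirradiated skin on day 7 and 0 to 5 for the F-test of radiation. The cause of these changes was not tested, apart from the smaller number of arrays. The drug comparison stayed at 0 under every alternative run.

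Of 39 called differences, refitted 626 times, 427 kept their call, 199 lost it and 0 changed sign. No gene had several features, so the mean of features gave the same levels. Signal at or under the negative controls on some or all arrays limits 19 of the 42 genes, Tk1 among them.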
